A study of Rattus norvegicus with 6 samples.

Results

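The 10 genes described here encode the TGF-β ligands (Tgfb1, Tgfb2 and Tgfb3), their type I and type II receptors (Tgfbr1 and Tgfbr2), the receptor-activated SMADs Smad2 and Smad3, the shared partner Smad4, and the inhibitory SMADs Smad6 and Smad7. They were chosen by symbol, with earlier results of these data known, and all 10 were found among the 22574 gene symbols of the count table. The RNA came from RASMCs, primary smooth muscle cells taken from the aorta of male Sprague-Dawley rats. In 3 libraries the cells had been treated with citrullinated histone H3 together with double-stranded DNA, both components of extracellular traps (the CitH3+dsDNA group), and in 3 libraries they were BSA-treated controls. The length of the treatment is not given in the sources used here, and the labels name no other difference between the groups. The study's reporting summary says of its in vitro work that replicate wells were seeded from 1 animal, so the p-values measure well-to-well and library-to-library spread and not that between rats.

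TGF-β is secreted in a latent complex bound to its own propeptide and to matrix proteins, and is active only after release. The active ligand joins the type II and type I receptors, the type I receptor phosphorylates SMAD2 and SMAD3, and these enter the nucleus with SMAD4. In vascular smooth muscle the pathway is known for its role in matrix production and in the contractile phenotype, and SMAD7 and SMAD6 act as feedback inhibitors. Phosphorylation and release from latency leave no direct trace in a count table, so the values below concern transcript abundance.

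The CitH3+dsDNA libraries held 17997198, 17573905 and 18009324 counts in total and the control libraries 18031326, 18742395 and 18594365. Expression is given as CPM, counts relative to the library size after TMM scaling, and compares libraries for one gene, not one gene with another, since transcript length was not taken into account. Differences were tested with the quasi-likelihood method of edgeR over 12591 genes, and those with an adjusted p-value below 0.05 are spoken of as called. All 10 genes passed the filter on low counts. Control replicate 3 stood further from the other controls (chi-square of the counts, per gene, of 6.66 and 5.25) than those did from each other (3.27), and pairs of CitH3+dsDNA libraries lay between 3.39 and 4.57. In bulk RNA, fewer cells that express a gene and less RNA per cell cannot be told apart.

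Of the 10 genes, 1 was called, Tgfb3, and it was higher in the CitH3+dsDNA group. Among all genes tested 2.20% were called, 1.94% higher and 0.262% lower. The other 9 genes had log2 fold changes between -0.24 and 0.18 and adjusted p-values between 0.423 and 0.904, and 0 of the 9 had an unadjusted p-value under 0.05 in edgeR. The count of 0 called among these 9 was the same with DESeq2, limma-voom and each of the other alternatives. The 3 CitH3+dsDNA libraries lay apart from the 3 controls for 1 of the 10 genes, where this held for 19.1% of all genes tested. The median log2 fold change of the 10 genes was 0.040, against -0.0013 over all genes tested.

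**Figure D1:**
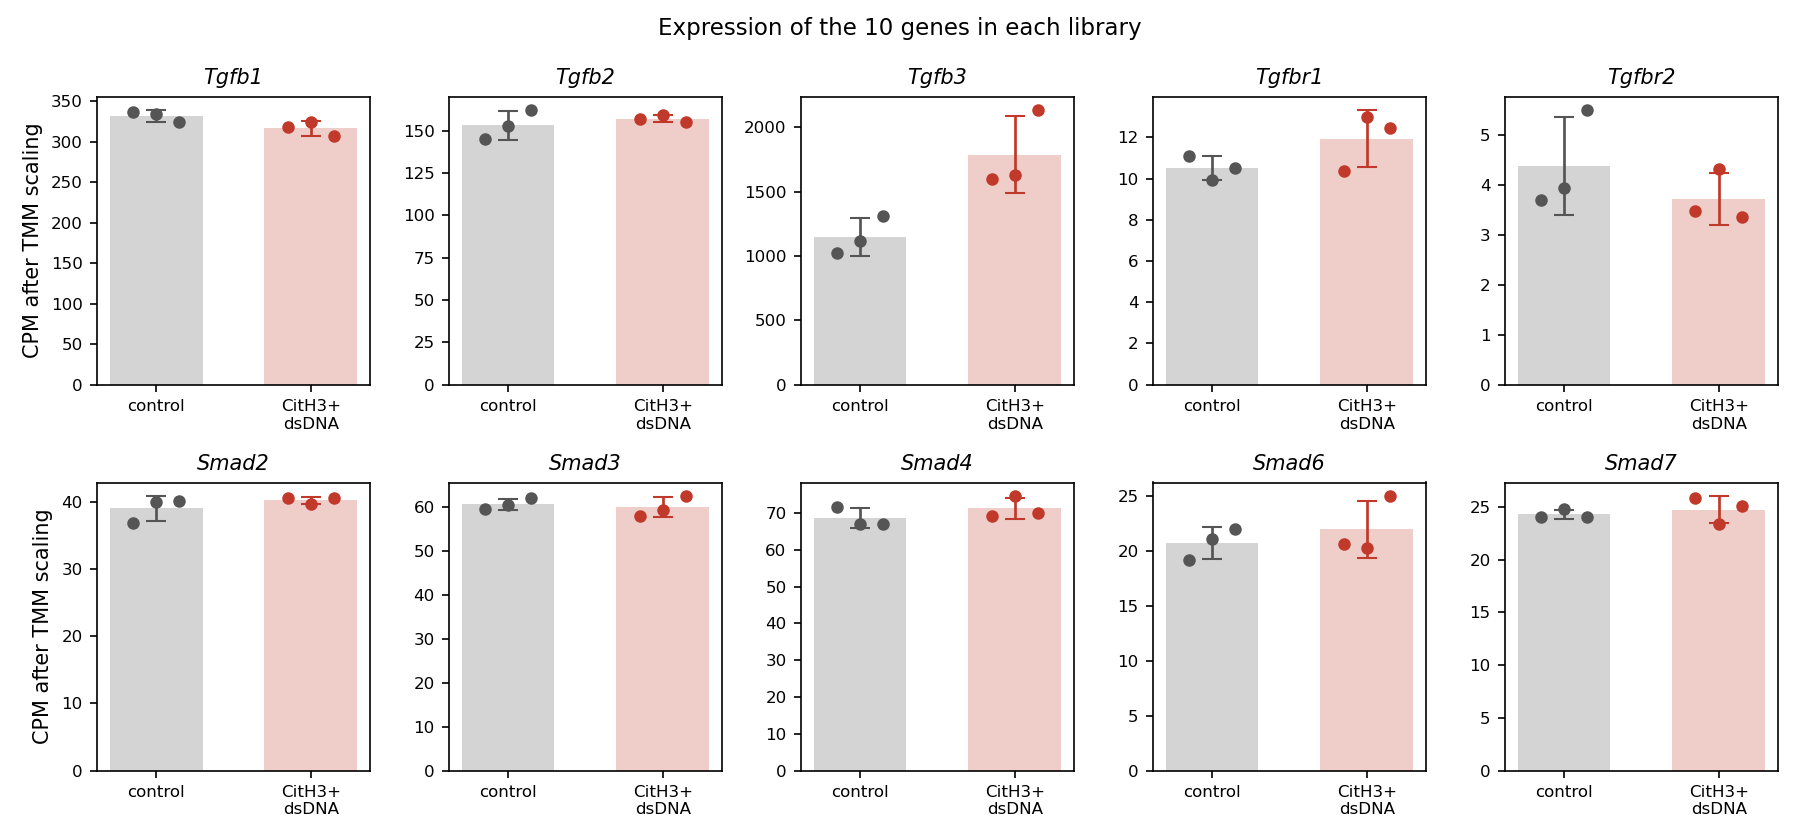
CPM after TMM scaling of each of the 10 genes, with 1 panel per gene and its own axis from 0, in 3 control libraries (grey) and 3 CitH3+dsDNA libraries (red). Points are libraries, bars are group means and error bars are SD (n = 3). The points of Tgfb3 do not overlap between the groups, with 1311 CPM the highest control and 1598 CPM the lowest CitH3+dsDNA library, and those of the other 9 genes do.

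Tgfb3, which encodes the TGF-β3 ligand, had 1598, 1628 and 2133 CPM in the CitH3+dsDNA libraries and 1021, 1118 and 1311 CPM in the controls. Every CitH3+dsDNA library was above every control, and the lowest of them was 1.22-fold above the highest control. The group means were 1786 ± 301 CPM (SD, n = 3) and 1150 ± 148 CPM (SD, n = 3), giving a log2 fold change of 0.64 (standard error, SE, 0.10, adjusted p = 0.00351 in edgeR). This corresponds to a fold change of 1.55, with a 95% interval from 1.33 to 1.81. By p-value Tgfb3 ranked 145 among the 12591 genes, and its absolute log2 fold change was at least as large as that of 97.0% of them. The exact permutation test of this gene alone, two-sided, gave p = 0.1, the smallest value that 3 libraries against 3 can give.

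Tgfb3 had 26610 counts in an average library, for which counting error is 0.613%. The SD between libraries was 16.8% of the mean in the CitH3+dsDNA group and 12.8% in controls, where the common biological coefficient of variation, the spread edgeR estimated for all genes together, was 5.85%. CitH3+dsDNA replicate 3, at 2133 CPM, stood above the other two libraries of its group. The call was lost in 1 of 15 alternatives, robust dispersion estimates, where the log2 fold change was also 0.64 but the SE was 0.17 and the adjusted p was 0.221 (unadjusted p = 0.0184 in edgeR). When single libraries were left out, the log2 value lay between 0.49, without CitH3+dsDNA replicate 3, and 0.74, without control replicate 3, and Tgfb3 was called each time. The adjusted p-value over all alternatives ran from 6.15e-06 to 0.221.

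Tgfb1 encodes TGF-β1, a widely expressed ligand, and had 318, 325 and 307 CPM after CitH3+dsDNA against 337, 335 and 324 CPM in controls. The groups overlapped by 1 CitH3+dsDNA library, and the log2 fold change was -0.068 (SE 0.035, adjusted p = 0.423 in edgeR). Its 95% interval in fold ran from 0.905 to 1.01, so a fall below 0.905 of the control level lies outside it.

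Tgfb2, the gene of the TGF-β2 ligand, had 157, 159 and 155 CPM after CitH3+dsDNA and 145, 153 and 162 CPM in controls. The CitH3+dsDNA libraries lay within the range of the controls. The log2 fold change was 0.036 (SE 0.043, adjusted p = 0.763 in edgeR), with a 95% interval of 0.961 to 1.10 in fold.

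Tgfb3 was also set against the other ligand genes as a ratio of counts within each library, which does not depend on the scaling of library sizes. The ratio of Tgfb3 to Tgfb1 counts was 5.02, 5.01 and 6.95 in the CitH3+dsDNA libraries and 3.03, 3.34 and 4.05 in controls. The ratio to Tgfb2 counts was 10.2, 10.2 and 13.7 against 7.03, 7.32 and 8.08. Both ratios were higher in every CitH3+dsDNA library than in any control, by 0.70 and 0.59 on the log2 scale in the mean. The ratios were formed with the values of these genes known and restate them on another scale, so they are a description with no test. They are of reads, not of molecules.

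Tgfbr1 encodes the type I receptor kinase, also known as ALK5. It had 10.4, 13.0 and 12.4 CPM after CitH3+dsDNA and 11.1, 9.91 and 10.5 CPM in controls, and the groups overlapped because 1 CitH3+dsDNA library was lower than 2 controls. The log2 fold change was 0.18 (SE 0.11, adjusted p = 0.480 in edgeR), and the 95% interval reached from 0.969 to 1.33 in fold. When single libraries were left out the log2 value ran from 0.12, without CitH3+dsDNA replicate 2, to 0.27, without CitH3+dsDNA replicate 1, and Tgfbr1 was not called.

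Tgfbr2, the gene of the ligand-binding type II receptor kinase, had 63, 76 and 61 counts after CitH3+dsDNA and 66, 73 and 102 counts in controls. These are 3.47, 4.31 and 3.36 CPM against 3.70, 3.93 and 5.50 CPM, with control replicate 3 above the other 5 libraries. The log2 fold change was -0.24 (SE 0.20, adjusted p = 0.637 in edgeR), and without control replicate 3 it was -0.040. Tgfbr2 was the most thinly counted of the 10 genes, with a counting error of 11.7% in an average library, and its 95% interval of 0.631 to 1.14 in fold was the widest. The SD between libraries was 14.0% of the mean in the CitH3+dsDNA group and 22.3% in controls.

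Smad2 and Smad3 encode the SMADs that the type I receptor phosphorylates. Smad2 had 40.6, 39.7 and 40.6 CPM after CitH3+dsDNA and 37.0, 40.0 and 40.2 CPM in controls, with a log2 fold change of 0.045 (SE 0.055, adjusted p = 0.777 in edgeR). Smad3 had 58.0, 59.3 and 62.4 CPM against 59.4, 60.4 and 62.0 CPM, with a log2 fold change of -0.017 (SE 0.045, adjusted p = 0.904 in edgeR). The groups overlapped for each of these genes. The 95% intervals were 0.949 to 1.12 in fold for Smad2 and 0.924 to 1.06 for Smad3.

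Smad4, the common partner that carries the receptor-activated SMADs to their targets, had 69.1, 74.6 and 70.1 CPM after CitH3+dsDNA and 71.8, 67.0 and 67.1 CPM in controls. The groups overlapped through control replicate 1, and the log2 fold change was 0.055 (SE 0.047, adjusted p = 0.653 in edgeR), with a 95% interval of 0.968 to 1.12 in fold.

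Smad6 and Smad7 encode the inhibitory SMADs, which are themselves induced by BMP and TGF-β signalling. Smad7 had 25.9, 23.4 and 25.1 CPM after CitH3+dsDNA and 24.0, 24.8 and 24.1 CPM in controls, and the log2 fold change was 0.027 (SE 0.066, adjusted p = 0.899 in edgeR). Smad6 had 20.6, 20.3 and 24.9 CPM against 19.1, 21.0 and 22.0 CPM, and the log2 fold change was 0.084 (SE 0.091, adjusted p = 0.734 in edgeR). In Smad6 CitH3+dsDNA replicate 3 was the highest of the 6 libraries, as it was in Tgfb3, and the other 2 libraries of its group lay among the controls. The 95% intervals were 0.922 to 1.12 in fold for Smad7 and 0.925 to 1.22 for Smad6.

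**Figure D2:**
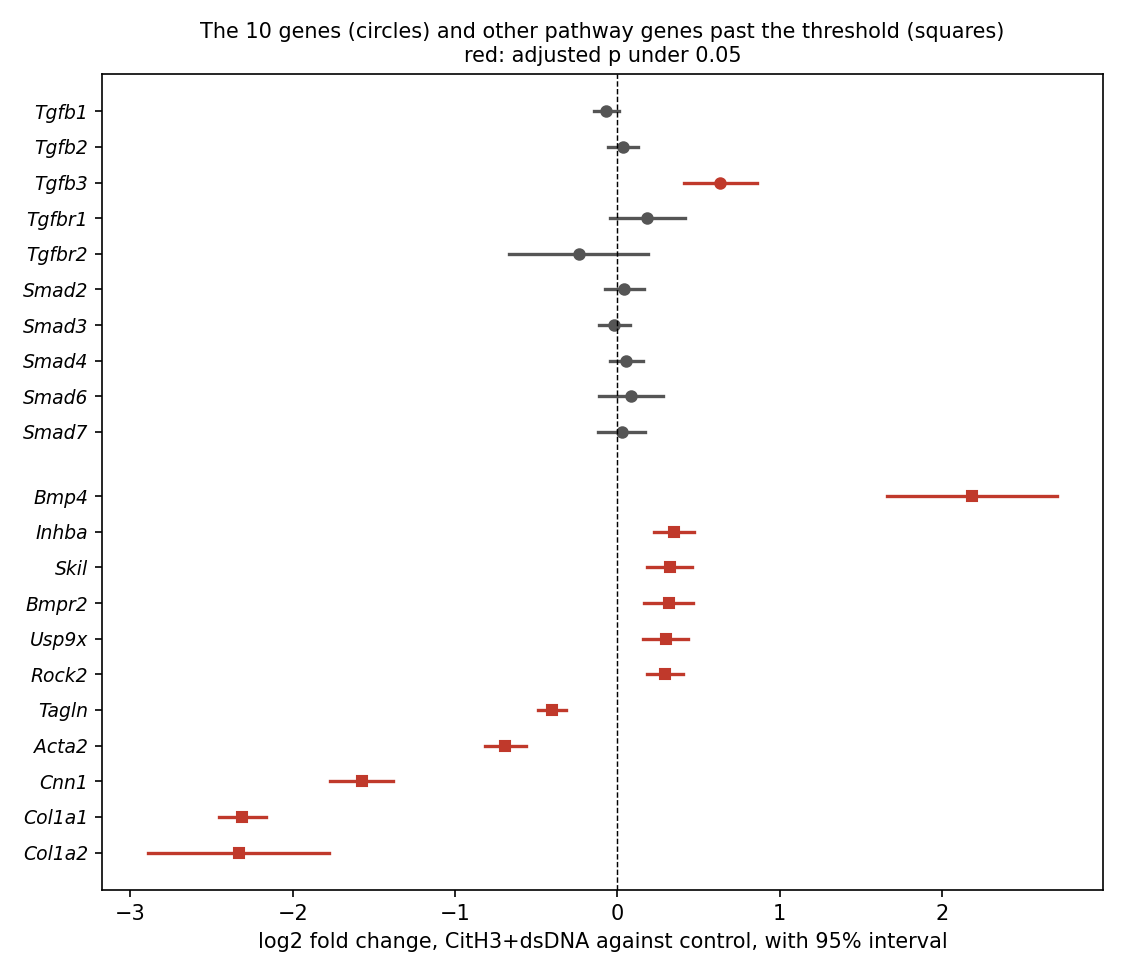
Log2 fold changes, CitH3+dsDNA against control, of the 10 genes (circles) and of the 11 other pathway genes past the threshold (squares), with 95% intervals from the edgeR fit on 3 libraries a group. Red marks an adjusted p-value under 0.05. Tgfb3, at 0.64, is the red circle, and the intervals of the other 9 circles include 0.

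The rest of the pathway was described from 7 lists holding 131 gene symbols, 130 of which were in the table and 107 of which were tested. In edgeR 6 of the 107 were called higher and 5 lower, against 1.94% and 0.262% of all genes tested, and the median log2 fold change was 0.0059. The lists were written with earlier results of these data known, and several of the 5 that fell had already been seen to fall, so their number is no independent evidence of a direction. The called genes stood among the other ligands, the receptors, the regulators of SMADs, the target genes, and the kinases and adaptors of the arm that bypasses SMADs.

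Among other ligands of the family and their antagonists, 2 of 17 tested genes rose and 0 fell (median log2 fold change -0.021). Bmp4, a ligand of the BMP branch, had 56, 55 and 54 counts after CitH3+dsDNA and 12, 11 and 14 counts in controls. The CitH3+dsDNA libraries were all far above the controls, although the gene was sparsely counted, and their counts are 3 consecutive whole numbers. Such a run in either group occurred in 32 of the 277 called genes, in 129 of all 12591 tested and in 0 of the 10 genes above, and its part in the calls was not tested. Whether the deposited counts with such runs are as the read counting gave them was not tested either. For Bmp4 the log2 fold change was 2.19 (SE 0.24, adjusted p = 9.42e-05 in edgeR). Inhba encodes the βA subunit of activin, a ligand that also signals through SMAD2 and SMAD3, and had 3084, 3012 and 3042 counts against 2111, 2642 and 2562. Its means were 170 ± 1.74 CPM (SD, n = 3) and 133 ± 12.8 CPM (SD, n = 3), giving a log2 fold change of 0.35 (SE 0.058, adjusted p = 0.00403 in edgeR). Both genes were called in all 15 alternatives. For Inhba control replicate 1 was the lowest library, and without it the log2 fold change was 0.27.

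Among 13 tested receptors and SMADs outside the 10 genes, 1 rose and 0 fell, and the median log2 fold change was 0.11. Bmpr2, the type II receptor of the BMP branch, had 1392, 1252 and 1324 counts after CitH3+dsDNA and 916, 1183 and 1149 in controls, giving a log2 fold change of 0.32 (SE 0.069, adjusted p = 0.0314 in edgeR). Of the 24 tested regulators of SMAD signalling, 2 rose and 0 fell (median 0.051). Skil encodes SnoN, a co-repressor of SMAD complexes that is itself a TGF-β target, and had 955, 898 and 913 counts against 663, 762 and 828, giving a log2 fold change of 0.33 (SE 0.064, adjusted p = 0.0163 in edgeR). Usp9x, a deubiquitinase that acts on SMAD4, had 3089, 2711 and 3019 counts against 2119, 2494 and 2704, giving a log2 fold change of 0.30 (SE 0.064, adjusted p = 0.0292 in edgeR). In each of these genes the groups did not overlap, and control replicate 1 was the lowest library. Trim33, a further regulator, was not called (log2 fold change 0.26, adjusted p = 0.0612) but was called in 2 alternatives.

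The fold changes of Bmpr2, Skil and Usp9x kept their sign in all 15 alternatives, but their calls were lost in 5, 6 and 6 of them. The log2 fold change ran from 0.23 to 0.38 for Bmpr2, from 0.26 to 0.39 for Skil and from 0.22 to 0.37 for Usp9x. Without control replicate 1 their adjusted p-values were 0.0639, 0.0655 and 0.0873, and without CitH3+dsDNA replicate 1 they were 0.194, 0.110 and 0.187. Without CitH3+dsDNA replicate 3 they were 0.106, 0.0553 and 0.122. Without CitH3+dsDNA replicate 2 Bmpr2 was at 0.0586 and Skil at 0.0519, and without control replicate 2 Skil was at 0.0746 and Usp9x at 0.0985. Several of these fits, with fewer libraries to estimate the spread from, had a log2 fold change as large as that with all libraries, such as 0.34 for Bmpr2 without CitH3+dsDNA replicate 2 and 0.34 for Skil without CitH3+dsDNA replicate 3. With all libraries and robust dispersion estimates Usp9x was at 0.30 with an adjusted p of 0.0928. Over all alternatives the adjusted p ran from 0.00189 to 0.194 for Bmpr2, from 0.00205 to 0.110 for Skil and from 0.000274 to 0.187 for Usp9x.

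None of the 15 tested genes of latency and activation was called in edgeR with all libraries, 1 had an unadjusted p-value under 0.05, and the median log2 fold change was -0.012. These genes cover the latent TGF-β binding proteins, fibrillin, thrombospondin 1, integrins and proteases. The smallest p-value belonged to Itgav, the αV subunit of integrins that release active TGF-β, at 523 ± 23.2 CPM (SD, n = 3) against 476 ± 20.6 CPM (SD, n = 3), giving a log2 fold change of 0.14 (SE 0.042, adjusted p = 0.137 in edgeR). Of the 15 alternatives 1 called Itgav, the fit without control replicate 3 (log2 fold change 0.17, adjusted p = 0.0376). Mmp14, a membrane-bound matrix metalloproteinase, came next, with a log2 fold change of -0.067 (adjusted p = 0.427).

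Of 26 tested TGF-β target genes, 5 fell and 1, Skil, rose, and the median log2 fold change was -0.0066. Col1a1 and Col1a2, the chains of type I collagen, fell by 2.31 and 2.33 on the log2 scale (adjusted p = 1.62e-10 and 9.18e-05 in edgeR). The controls of Col1a2 were widely spread, at 5733, 2352 and 3889 counts, against 656, 897 and 788 after CitH3+dsDNA. Its log2 fold change was -1.95 without control replicate 1 and -2.61 without control replicate 2. The contractile genes Cnn1, Acta2 and Tagln fell by 1.57, 0.69 and 0.40 (adjusted p = 9.54e-08, 6.51e-06 and 2.86e-05). Reads of Acta2 can be shared with near-identical actin genes. With robust dispersion estimates the log2 fold change of Col1a2 was also -2.33, but its SE was 0.44 in place of 0.26 and it was not called (adjusted p = 0.112, with a range over the alternatives from 6.47e-08 to 0.112). Ctgf, the connective tissue growth factor gene and a widely used TGF-β target, was chosen after its values were seen. It had 14961, 14567 and 14601 counts after CitH3+dsDNA and 14824, 15623 and 15287 in controls, giving a log2 fold change of -0.023 (95% interval -0.089 to 0.042, adjusted p = 0.787 in edgeR). Lox, the collagen cross-linking enzyme, also chosen after its values were seen, had a log2 fold change of 0.15 and was not called (adjusted p = 0.0748), but was called in 5 of the 15 alternatives. Postn, the gene of the matrix protein periostin, was called in 3 alternatives but not with TMM and the default dispersions in edgeR (log2 fold change 0.14, adjusted p = 0.0864).

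BMP target genes gave 0 calls among 4 tested in edgeR, 0 at an unadjusted p-value under 0.05 and 0 in each alternative (median log2 fold change 0.0015). Id1, a BMP-induced inhibitor of helix-loop-helix factors, had 426, 420 and 403 counts after CitH3+dsDNA and 413, 452 and 514 in controls, giving a log2 fold change of -0.11 (SE 0.078, adjusted p = 0.559 in edgeR). Atoh8 had 20 to 31 counts in each library and a log2 fold change of 0.26 (SE 0.29, adjusted p = 0.749). Of the 11 tested kinases and adaptors of the arm that bypasses SMADs, 1 rose and 0 fell (median 0.125). Rock2, a RhoA-activated kinase, had 2413, 2353 and 2382 counts against 1760, 2073 and 2107, giving a log2 fold change of 0.30 (SE 0.051, adjusted p = 0.00613 in edgeR), and was called in all 15 alternatives. Control replicate 1 was its lowest library, and without it the log2 fold change was 0.24. Rock1, its close relative, and Tab3, an adaptor of the kinase TAK1, were not called (log2 fold changes 0.26 and 0.48, adjusted p = 0.0678 and 0.0893), but Rock1 was called in 3 alternatives and Tab3 in 1, robust dispersion estimates. Traf6, an E3 ligase of this arm named after its values were seen, had 280, 242 and 246 counts against 210, 275 and 65. Its log2 fold change of 0.51 (adjusted p = 0.52) was 0.098 without control replicate 3, which held the 65 counts. The same library was also low in Tpm1, Stub1 and Gdf15, genes of other lists named after their values were seen. Tpm1, a target gene that encodes a tropomyosin, had 17977, 19139 and 6587 control counts, and its log2 fold change of 0.38 was 0.024 without that library. Stub1, the gene of a ubiquitin ligase among the regulators, had 3042, 3241 and 967, and its value of 0.29 was -0.088 without it. Gdf15, a ligand of the family, had 21, 27 and 21 counts after CitH3+dsDNA and 33, 30 and 11 in controls. Its log2 fold change was -0.075 (SE 0.37, adjusted p = 0.955 in edgeR). Control replicates 1 and 2 were above every CitH3+dsDNA library, so this small value rests on control replicate 3. Its value without that library is not given here.

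The label of the cells was compared with marker genes. All 12 contractile smooth muscle markers were detected and tested, and their summed CPM were 8765, 9283 and 9263 after CitH3+dsDNA and 12010, 12360 and 11530 in controls. The gene of the list with the most reads, which is no order of transcript numbers, was Acta2, at 2868, 3041 and 3437 CPM against 5030, 5323 and 4723 CPM. Of that list 4 genes fell, Cnn1, Acta2, Tagln and Smtn, and 1 rose, Myocd, the gene of the cofactor myocardin (log2 fold change 1.09, adjusted p = 1.60e-06 in edgeR). The other 7 were not called. Of the 12 genes 3 had a log2 fold change above 0, which were Myocd, Cald1 (0.16, adjusted p = 0.102) and Myh11 (0.061, adjusted p = 0.462). Over the alternatives the number called in the list ran from 4 to 6, with 6 under DESeq2 and under robust dispersion estimates. The call of Smtn (log2 fold change -0.21, adjusted p = 0.0386) was lost in 8 of the 15 alternatives, with log2 fold changes from -0.24 to -0.17 and adjusted p-values from 0.0176 to 0.202, while Cnn1, Acta2, Tagln and Myocd were called in all 15. Of the fits without 1 library, 5 did not call Smtn, and that without control replicate 3 did. The part of these changes in the value of Tgfb3 was not tested.

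Markers of other cells gave 0 calls in edgeR and 0 unadjusted p-values under 0.05, and 0 calls in each of the 15 alternatives, DESeq2 and limma-voom among them. The macrophage and leukocyte list had 6 of 14 genes tested and 0 called, with summed CPM of 75.1, 75.0 and 77.2 against 76.9, 79.2 and 75.6. Cd14 was its gene with the most reads, at 51.0 to 53.1 CPM against 50.7 to 53.6 CPM, while C1qb and C1qc had no count and Ptprc, the gene of the leukocyte antigen CD45, had 1 count in all libraries together. Aif1 of the same list, chosen after its values were seen, had 8, 9 and 9 counts against 2, 2 and 3, higher in every CitH3+dsDNA library, and was under the filter and not tested. Csf1r of this list was clearly counted, with 304, 296 and 374 counts against 349, 370 and 366. The endothelial list had 6 of 11 genes tested and 0 called, with sums of 116, 121 and 112 CPM against 120.0, 124 and 125 CPM, led by Egfl7 at 53.6 to 58.6 CPM against 58.0 to 59.4 CPM, and Cldn5 had no count. Nos3 of the endothelial list had 936, 935 and 908 counts against 928, 1033 and 1014. The adventitial fibroblast list had 4 of 9 genes tested and 0 called, with sums of 489, 502 and 495 CPM against 540.2, 500.3 and 480.0 CPM, led by Serpinf1 at 466 to 475 CPM against 457 to 515 CPM, and Cd34 had no count.

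The tested genes whose log2 CPM followed Tgfb3 most closely over the 6 libraries were Phip, Adnp and Tmem131, with Pearson correlations of 0.991, 0.989 and 0.988. The points share library preparation and depth, and the correlations are a description. None of the 3 was called, with log2 fold changes of 0.23, 0.066 and 0.16 and adjusted p-values of 0.342, 0.490 and 0.120 from edgeR.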

How the data were processed

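The authors sequenced stranded mRNA libraries of 6 RASMC cultures, mapped the reads to the rat genome with TopHat and, per the methods, obtained counts per gene with HTSeq. The deposited values are whole-number counts with no sign of normalization, and whether they are as HTSeq wrote them was not tested. The build was Rnor6.0. How strand was treated in the counting is not given in the sources used here, so overlapping or antisense genes can share reads. The submitters' processing notes name TopHat2 2.1.1, Cufflinks 2.2.1 and Cuffdiff, and do not name HTSeq. RefSeq's GRCr8 annotation, a later assembly used for names only, has an entry for all 10 symbols, and the 2 entries that overlap them there are not in the count table.

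Samples were grouped by their titles, and all 6 columns were used. Low counts were removed by filterByExpr. TMM scaling and the quasi-likelihood test came from edgeR 4.0.16 (R 4.3.3), with two-sided p-values adjusted by Benjamini-Hochberg. The SE is the unshrunken coefficient over the root of F, and 95% intervals use 12.4 degrees of freedom. The study's methods name DESeq2, which was run here in version 1.42.0 as an alternative, as was limma-voom (limma 3.58.1). Further alternatives were other scalings and filters, robust dispersion, the replicate number as a block, and fits without single libraries. Whether replicate numbers pair the libraries is not stated in the labels, and the main fit did not use them. The fits were also run on simulated counts with planted changes larger than that of Tgfb3, which is no test of the calls given here.

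The 10 genes and all lists were chosen with earlier results of these data known. Named are the 10 genes, up to 4 called genes per direction and list, the 2 smallest p-values of a list with no call, the marker with the most reads, called markers (up to 4), markers at 0 counts, and the 3 genes most correlated with a called member. Smtn, Cald1, Myh11, Ptprc, Aif1, Csf1r, Nos3, Ctgf, Lox, Postn, Trim33, Rock1, Tab3, Traf6, Tpm1, Stub1, Gdf15 and the fall of Tagln as a target lie outside that rule and were named with their values known.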

Additional observations from a re-analysis of the deposited data

How the results depend on the processing

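Of the 10 genes, 1 was called with all libraries and in 14 of 15 alternatives, each time Tgfb3, including all 6 fits with a library left out (1 each, with log2 values of 0.49 to 0.74). With robust dispersion estimates 0 were called and Tgfb3 was at 0.64 on the log2 scale with an adjusted p of 0.221; the cause was not tested. The other 9 genes gave no call in 135 values under alternatives. Their sign changed in 5 of these, in 4 genes (Tgfb2, Smad3, Smad6 and Smad7), none of them called. The 3 other scalings of library size moved the median of all genes by at most 0.019 on the log2 scale.

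Over all genes 277 were called, between 212 and 376 with all libraries, and between 164 (without CitH3+dsDNA replicate 1) and 357 with a library left out; without control replicate 1 there were 184. Of the other pathway genes 6 were higher, 10 with library size alone, 10 with robust dispersion estimates, and 3 to 8 with a library left out, with 3 without CitH3+dsDNA replicate 1, CitH3+dsDNA replicate 3 or control replicate 1; 5 were lower, and 4 or 5 in every alternative. The 11 called pathway genes kept their call in 147 of 165 values and their sign in all. The 18 lost calls fell on Bmpr2, Skil, Usp9x and Col1a2.

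With a replicate block 212 genes were called, Tgfb3 was at 0.63 on the log2 scale (adjusted p = 6.15e-06), and 3 pathway genes were higher. Bmpr2, Skil and Usp9x were not called there (adjusted p = 0.0820, 0.0507 and 0.0519), at log2 fold changes of 0.32, 0.33 and 0.30, as without the block. Whether the numbers pair the libraries is not stated in the labels. The deviations from the group means of same-numbered libraries correlated at -0.0458, 0.00452 and 0.0355 across genes. These values take all tested genes together and cannot exclude a pairing that acts on some of them. For Tgfb3 the SE was 0.036 with the block and 0.10 without it. The lowest counts were those of Tgfbr2, at 61 to 102, with a counting error of 11.7%, and Tgfbr1, at 184 to 229, with 7.01%. The SD between libraries, as a share of the mean, was 14.0% after CitH3+dsDNA and 22.3% in controls for Tgfbr2, and 11.6% and 5.61% for Tgfbr1.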
